A study of Mus musculus with 4 samples.

Results

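Embryonic mouse brain tissue carries blood, and its RNA therefore includes transcripts of red cells. The 9 genes described here are the embryonic and adult globins and 2 further erythroid genes, taken by name from 27293 genes of the count table: Hba-x, Hbb-y and Hbb-bh1 (yolk sac globins), Hba-a1, Hba-a2, Hbb-bs and Hbb-bt (definitive globins), and Alas2 and Slc4a1. All 9 were measured in each of 4 RNA-seq libraries from C57BL/6 embryos at embryonic day 13 (E13), labelled as telencephalic tissue and called cerebral cortex in the study. Of the libraries, 2 are labelled WT and 2 are labelled STINGf/f;Nestin-Cre (cKO), with both copies of the STING gene floxed and Cre recombinase driven by Nestin, which is active in neural progenitors. Whether the WT embryos carried a floxed allele or Cre is not given, and the title of WT 2 ends in "nes" where that of WT 1 ends in "wt", which the labels do not explain. No label says whether the libraries came from separate litters or from pooled embryos, so each p measures the spread between these samples only, which may be technical.

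Red cells of the embryo arise in successive waves. Primitive erythroblasts from the yolk sac express the alpha-like chain of Hba-x (zeta) and the beta-like chains of Hbb-y (epsilon y) and Hbb-bh1 (beta h1). They circulate as nucleated cells through midgestation. Definitive red cells, which leave the fetal liver, use Hba-a1 and Hba-a2 for the alpha chain and, in the haplotype of C57BL/6, Hbb-bs and Hbb-bt for the beta chain. The terms yolk sac and definitive name genes here. Which cells their RNA came from was not measured, so a share of counts is not a share of cells. The red cell lineage is not derived from the neural progenitors in which Nestin-Cre acts.

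How well reads can be assigned differs between the members, which is why short stretches of their coding sequence are shown. The alpha genes lie on chromosome 11 (plus strand) and the beta genes on chromosome 7 (minus strand), in GRCm38 coordinates, and each stretch is 60 bases of exon 2, inside the coding sequence, from 5′ to 3′. Capitals mark bases that differ from Hba-a1 in the alpha cluster or from Hbb-bs in the beta cluster.
Hba-x, chr11:32277632-32277691: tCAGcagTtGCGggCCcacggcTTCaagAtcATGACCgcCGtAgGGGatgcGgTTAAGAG
Hba-a1, chr11:32283987-32284046: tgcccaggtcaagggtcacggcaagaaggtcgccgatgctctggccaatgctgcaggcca
Hba-a2, chr11:32296804-32296863: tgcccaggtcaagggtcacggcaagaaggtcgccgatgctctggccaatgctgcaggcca
Hbb-y, chr7:103852799-103852858: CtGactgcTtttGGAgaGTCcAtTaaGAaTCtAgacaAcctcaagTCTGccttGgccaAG
Hbb-bh1, chr7:103842742-103842801: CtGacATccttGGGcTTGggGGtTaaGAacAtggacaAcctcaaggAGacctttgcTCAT
Hbb-bs, chr7:103827499-103827558: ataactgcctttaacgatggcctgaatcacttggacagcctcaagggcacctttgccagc
Hbb-bt, chr7:103813490-103813549: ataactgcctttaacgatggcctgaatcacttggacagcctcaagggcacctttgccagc
In this stretch Hba-x differed from Hba-a1 at 33 bases, Hbb-y from Hbb-bs at 24 and Hbb-bh1 from Hbb-bs at 23. Hba-a2 and Hbb-bt had no difference from their partners. Over the whole coding sequence, Hba-a1 and Hba-a2 differed at 1 of 429 bases and Hbb-bs and Hbb-bt at 1 of 444, whereas Hba-x was 62.0% identical to Hba-a1 and Hbb-y was 74.3% identical to Hbb-bs. Among all 50-base windows of the annotated exons, every window of Hba-x, Hbb-y, Hbb-bh1, Alas2 and Slc4a1 was found in no other gene. The share of such windows was 27.7% in Hba-a1, 10.7% in Hba-a2, 46.8% in Hbb-bs and 41.7% in Hbb-bt, and the other windows occurred in the partner gene. How the authors treated reads that fit both genes of a pair is not given in the sources used here. The split within a pair and the level of a definitive globin relative to a yolk sac globin are therefore uncertain, while the comparison of libraries for one gene or one cluster rests on the same counting in each.

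Each library held between 17209654 and 18533391 gene counts, and 3 counts correspond to between 0.162 and 0.174 CPM, the count per 1000000 gene counts of the library. In what follows, values given for the WT or the cKO libraries stand in the order of their replicate numbers, 1 and then 2. The STING gene, listed as Tmem173, had 20 and 19 counts in the WT libraries and 18 and 22 in the cKO libraries, with a log2 fold change of 0.02 ± 0.45 (standard error). This total does not show which exons were read, so WT and cKO are used here as labels. Markers of cortical progenitors and neurons were present in all libraries, with medians of the log2 fold change of 0.09 over 8 progenitor genes and -0.00 over 7 neuronal genes.

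The 7 globins together took 18586 and 10692 counts in the WT libraries and 8546 and 12762 in the cKO libraries. This is 0.108% and 0.0577% of the WT libraries and 0.0469% and 0.0705% of the cKO libraries. WT 1 was the highest library for globin RNA and cKO 1 the lowest, and the difference between the WT libraries was larger than that between the group means. In bulk tissue, fewer red cells and less globin RNA per cell cannot be told apart.

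Among the yolk sac globins, Hba-x (ENSMUSG00000055609, chr11:32276400-32278116, plus strand), the embryonic alpha-like chain, had 120 and 38.1 CPM in the WT libraries and 33.3 and 54.4 CPM in the cKO libraries. The WT mean was 79.1 ± 58.0 CPM and the cKO mean 43.9 ± 15.0 (SD, n = 2 each), with a log2 fold change (cKO over WT, ± standard error) of -0.83 ± 0.47. WT 1 stood apart and WT 2 lay between the cKO libraries, so the groups overlapped. Hbb-y (ENSMUSG00000052187, chr7:103851749-103853216, minus strand), the main embryonic beta-like chain, had 479.8 and 181 CPM in the WT libraries and 163 and 243 CPM in the cKO libraries. On the log2 scale the change was -0.68 ± 0.40, and its order of libraries was that of Hba-x. Hbb-bh1 (ENSMUSG00000052217, chr7:103841637-103843164, minus strand), the beta-like chain of the earliest yolk sac cells, was counted 75 and 24 times in the WT libraries and 37 and 65 times in the cKO libraries, or 4.36 and 1.29 CPM against 2.03 and 3.59 CPM. Here WT 2 was the lowest library, the group means were 2.83 ± 2.17 CPM in WT and 2.81 ± 1.11 in cKO, and the log2 fold change was 0.01 ± 0.57.

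The definitive globins varied less between the WT libraries. Hba-a1 (ENSMUSG00000069919, chr11:32283511-32284465, plus strand), an adult alpha chain gene, had 260.4 and 167 CPM in the WT libraries and 125 and 192 CPM in the cKO libraries, with a log2 fold change of -0.42 ± 0.26. Hba-a2 (ENSMUSG00000069917, chr11:32296489-32297298, plus strand), its near-identical copy, had 22.4 and 10.2 CPM against 8.22 and 17.1 CPM, and a log2 fold change of -0.35 ± 0.43. For both, WT 2 lay between the cKO libraries. Hbb-bs (ENSMUSG00000052305, chr7:103826534-103828096, minus strand), an adult beta chain gene, had 141 and 136 CPM in the WT libraries and 103 and 147 CPM in the cKO libraries, with a log2 fold change of -0.13 ± 0.19. It was the member in which the WT libraries were closest, with a ratio of WT 1 to WT 2 of 1.04, and the only one whose highest library was cKO 2. Hbb-bt (ENSMUSG00000073940, chr7:103812524-103813996, minus strand), the other adult beta chain gene, had 51.8 and 43.7 CPM against 34.4 and 47.4 CPM, and a log2 fold change of -0.21 ± 0.21.

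Within the near-identical pairs, the ratio of counts of Hba-a1 to Hba-a2 was 11.6 and 16.4 in the WT libraries and 15.2 and 11.2 in the cKO libraries. Divided by the number of windows found in no other gene, the ratio was 3.63 and 5.12 against 4.74 and 3.52. Hbb-bs had 2.72 and 3.10 times the counts of Hbb-bt in the WT libraries and 2.99 and 3.10 times in the cKO libraries. WT 1 and cKO 2 had the lower ratios in the alpha pair, and the beta pair was split almost alike in every library.

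Alas2 (ENSMUSG00000025270, chrX:150547375-150570638, plus strand) encodes the erythroid form of the enzyme that starts heme synthesis. Its counts were 206 and 137 in the WT libraries and 109 and 161 in the cKO libraries, or 11.97 and 7.39 CPM against 5.98 and 8.90 CPM, with a log2 fold change of -0.37 ± 0.33. The gene is X-linked, and 4 genes of the Y chromosome (Uty, Kdm5d, Ddx3y and Eif2s3y) had summed counts of 2735 and 0 in the WT libraries and 3002 and 1848 in the cKO libraries. WT 2 alone had none, so this difference cannot be told apart from other differences between WT 1 and WT 2. Its part in the levels of Alas2 and the other members, and in the comparison of the groups, was not tested. Slc4a1 (ENSMUSG00000006574, chr11:102348824-102366203, minus strand) encodes band 3, the anion exchanger of the red cell membrane. It had 186 and 69 counts in the WT libraries and 68 and 98 in the cKO libraries, or 10.8 and 3.72 CPM against 3.73 and 5.42 CPM, with a log2 fold change of -0.65 ± 0.48. WT 2 and cKO 1 had almost equal levels of Slc4a1, and WT 1 alone stood above the other libraries.

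**Figure D1:**
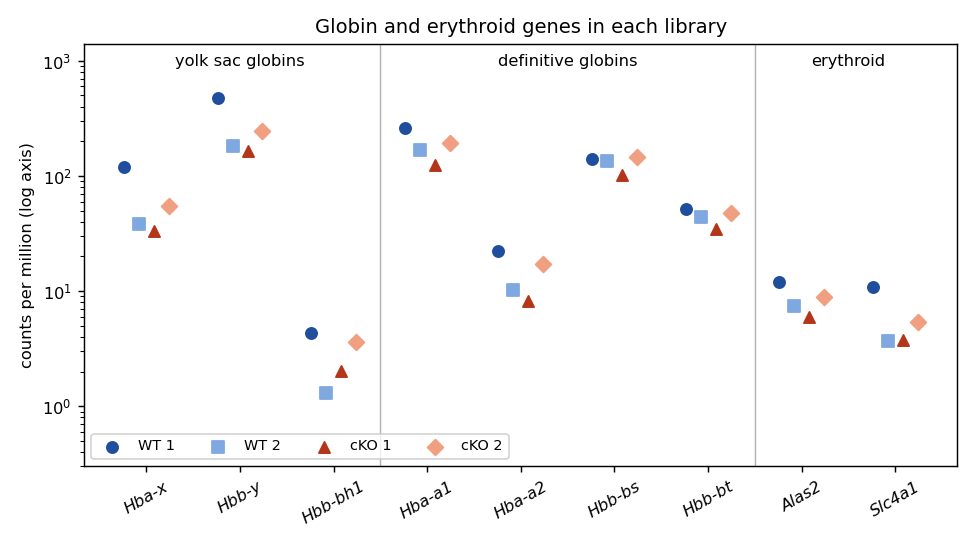
Level of each member in CPM (log axis), with 1 point per library and no averaging, grouped as yolk sac globins, definitive globins and other erythroid genes. WT 1 is the highest point for 8 of 9 genes, and the WT and cKO points overlap for all 9.

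None of the 9 members passed the thresholds of the study (2-fold, unadjusted p up to 0.05) in edgeR's quasi-likelihood test of cKO against WT. Among all 16145 genes tested, 131 did (0.811%). For the members the unadjusted p ran from 0.113 (Hba-x) to 0.981 (Hbb-bh1), and the Benjamini-Hochberg adjusted p over all genes tested was 0.9999 for each (edgeR). None of the genes tested had an adjusted p under 0.05 in this edgeR fit or in DESeq2, while 199 genes had an unadjusted p under 0.05 in this edgeR fit. With no filter on low counts, 65 of 27293 genes had an adjusted p under 0.05 in edgeR. The log2 fold change was negative in 8 of 9 members, with a median of -0.37 over the members and -0.01 over all genes tested. The groups overlapped in all 9 members, whereas over all genes tested the cKO libraries both lay below the WT libraries in 11.2% and both above in 10.4%.

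The order of the libraries was shared by most members. WT 1 was the highest library in 8 of 9 members, against 27.3% of all genes tested, and cKO 1 the lowest in 7 of 9, against 26.9%. Between libraries with the same label, WT 1 was at least 2-fold above WT 2 on the CPM + 0.5 scale in 5 of 9 members (Hba-x, Hbb-y, Hbb-bh1, Hba-a2 and Slc4a1), against 2.32% of all genes tested. cKO 2 was at least 2-fold above cKO 1 in 1 of 9, Hba-a2, against 0.774%. The members are expressed in the same lineage and were read from the same libraries, so these counts describe 4 libraries and not 9 independent observations.

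Leaving out 1 library at a time showed how far each fold change rested on WT 1. These fits leave a single library in a group, which is assumed to vary like the others. Without WT 1, the log2 fold change was 0.20 for Hba-x, 0.17 for Hbb-y, 1.11 for Hbb-bh1, 0.31 for Hba-a2 and 0.29 for Slc4a1, so that the sign turned in all of these but Hbb-bh1, which was already positive. For Alas2 it was 0.01, and for Hba-a1, Hbb-bs and Hbb-bt it stayed negative at -0.07, -0.12 and -0.10. Without WT 2 the log2 fold change was -1.42 for Hba-x, -1.21 for Hbb-y and -1.21 for Slc4a1, further from 0 than with all libraries. In that fit these 3 of 9 members passed the thresholds of the study, against 2.07% of all genes tested that were called lower, and in the fits without any other library no member did. With no filter on low counts, the adjusted p in edgeR was 0.0160 for Hba-x and 0.0573 for Hbb-y, and 1 of 9 members had an adjusted p under 0.05, against 0.238% of all genes, at a log2 fold change of -0.82. The unadjusted p in that edgeR fit was 0.0216 for Hba-a1 and 0.0487 for Slc4a1, each with less than a 2-fold change.

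**Figure D2:**
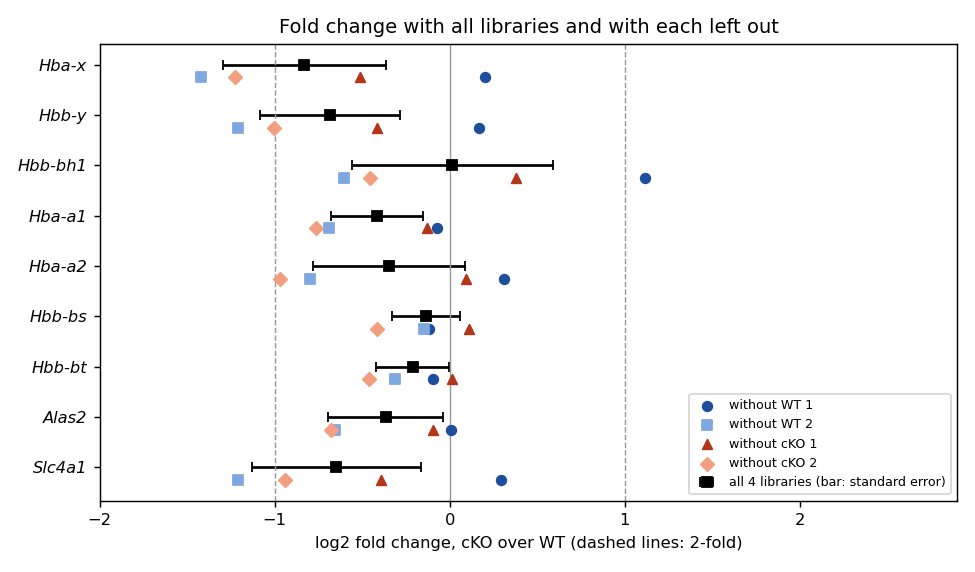
Log2 fold change of each member, cKO over WT, with all 4 libraries (black squares, bars of 1 standard error) and with each library left out (coloured points); dashed lines mark a 2-fold change. For Hba-x the value runs from -1.42 without WT 2 to 0.20 without WT 1, whereas for Hba-a1 it stays below 0 in every fit.

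The summed yolk sac globins were at 604 and 220.5 CPM in the WT libraries and at 198 and 302 CPM in the cKO libraries. The means were 412 ± 271 CPM in WT and 250.003 ± 72.9 in cKO (SD, n = 2 each), and the exact two-sided permutation test over libraries gave p = 0.667. The summed definitive globins were at 476 and 356 CPM against 270.1 and 404 CPM, with means of 416 ± 84.4 and 337 ± 94.6 (SD, n = 2 each) and p = 0.667 in the same exact permutation test. With 2 libraries per group this test cannot go below 0.333. Neither sum differed between the groups by more than the spread between libraries. WT 1 had 2.74 times the yolk sac globin level of WT 2 but 1.33 times its definitive globin level, whereas cKO 2 exceeded cKO 1 by similar ratios of 1.52 and 1.495.

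WT 1 was therefore the only library in which yolk sac globin counts exceeded definitive globin counts, with a ratio of 1.27, while the ratio was 0.619 in WT 2 and 0.735 and 0.747 in the cKO libraries. The yolk sac share within a cluster does not depend on how much blood a library holds. In the alpha cluster, the share of Hba-x was 29.8% of counts in WT 1 (95% Clopper-Pearson interval 28.7 to 30.9), 17.7% in WT 2 (16.5 to 18.9), 20.03% in cKO 1 (18.6 to 21.5) and 20.6% in cKO 2 (19.5 to 21.8). In the beta cluster, Hbb-y and Hbb-bh1 made up 71.5% in WT 1 (70.7 to 72.3), 50.4% in WT 2 (49.2 to 51.6), 54.6% in cKO 1 (53.3 to 56.0) and 55.9% in cKO 2 (54.8 to 57.0). In both clusters WT 1 was highest, WT 2 lowest and the cKO libraries lay between them with overlapping intervals. The intervals cover counting error only, and reads are not independent molecules.

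Between the groups, the share in the alpha cluster was 23.8% ± 8.55 in WT and 20.3% ± 0.441 in cKO, a difference of -3.42 percentage points (SD, n = 2 each, exact permutation p = 1). In the beta cluster it was 61.0% ± 14.9 in WT and 55.3% ± 0.918 in cKO, a difference of -5.68 points (SD, n = 2 each, exact permutation p = 1). The spread between the WT libraries was larger than either difference. Without WT 1 the differences were 2.63 and 4.86 points, in the opposite direction.

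**Figure D3:**
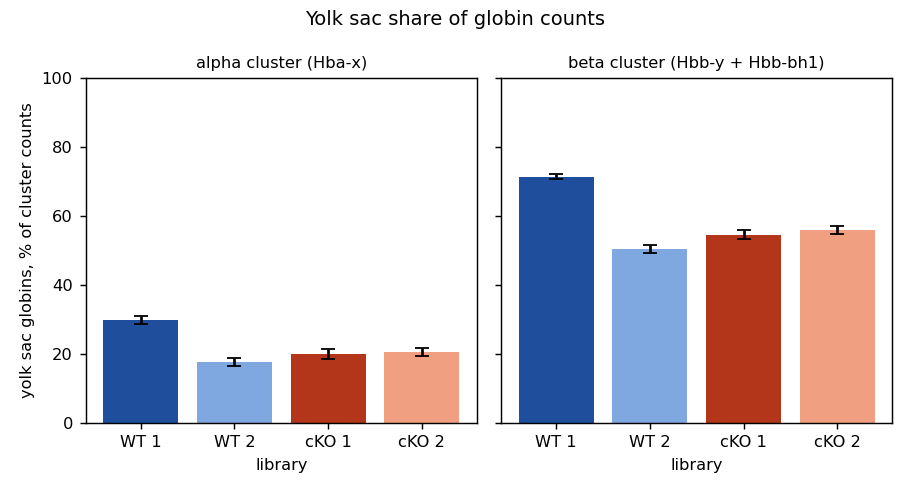
Share of yolk sac globins in the counts of the alpha cluster (Hba-x, left) and of the beta cluster (Hbb-y and Hbb-bh1, right) in each library, in percent, with 95% Clopper-Pearson intervals. WT 1 is above the other libraries in both panels, and WT 2, cKO 1 and cKO 2 lie between 17.7 and 20.6% in the alpha cluster and between 50.4 and 55.9% in the beta cluster.

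Levels of different genes were compared as CPM per kilobase of annotated exon, as a mean over the 4 libraries. On this scale Hbb-y had the highest level (422 ± 231 CPM per kilobase, SD, n = 4), followed by Hba-a1 (229 ± 70.0), Hbb-bs (171 ± 25.8), Hba-x (65.5 ± 42.7), Hbb-bt (63.1 ± 10.6), Hba-a2 (21.7 ± 9.77), Hbb-bh1 (4.598 ± 2.29), Alas2 (3.56 ± 1.07) and Slc4a1 (1.21 ± 0.686). Each gene was above the next in this order in 4 of 4 libraries, except that Hba-x exceeded Hbb-bt in 1 of 4, WT 1, and Hbb-bh1 exceeded Alas2 in 3 of 4, all but WT 2. The ranges over libraries overlapped between Hbb-y, Hba-a1 and Hbb-bs in turn, between Hba-x and Hbb-bt, and between Hbb-bh1 and Alas2. Of all globin counts per kilobase, Hbb-y made up 50.4% and 36.3% in the WT libraries and 40.0% and 39.7% in the cKO libraries. Hbb-bs made up 12.2% and 22.4% against 20.7% and 19.8%, so that its share was lowest where that of Hbb-y was highest. These are parts of the same total, so a higher share of Hbb-y by itself lowers the other shares. In CPM, Hbb-bs was at 141 and 136 in the WT libraries, where Hbb-y was at 479.8 and 181.

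The order of yolk sac and definitive globins depended on the scale. As CPM per 1000 windows found in no other gene, a scale chosen after seeing the data, Hba-a1 had the highest level (881 ± 269, SD, n = 4) and was above Hbb-y (457 ± 250.1) in 4 of 4 libraries. Hbb-bs followed at 393 ± 59.2 and was below Hbb-y in 1 of 4 libraries, WT 1. Hba-a2 (219 ± 98.7) and Hbb-bt (162 ± 27.2) were then both above Hba-x (69.3 ± 45.2). Which scale is nearer to the RNA levels depends on how shared reads were counted. Hbb-bh1, Alas2 and Slc4a1 were the lowest on both scales.

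Per kilobase, the yolk sac globins together made up 59.4% and 41.7% in the WT libraries and 46.0% and 46.2% in the cKO libraries, with means of 50.5% ± 12.5 in WT and 46.1% ± 0.198 in cKO (SD, n = 2 each, exact permutation p = 1). Counted per window found in no other gene, the share was 30.6% and 19.1% against 21.8% and 21.4%. The level of the yolk sac share therefore depended on how shared reads are treated, while WT 1 was the highest and WT 2 the lowest on both scales.

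The sequence before the RefSeq start of transcription (GRCm38.p6) was available for 7 of 9 members, and its last 120 bases were searched on both strands for 6 short motifs of erythroid and general promoters. CACCC, the core bound by Klf1, was found in 7 of 7, against 31.7% of 32851 promoters of the same length. CCAAT was found in 5 of 7 (Hba-a1, Hba-a2, Hbb-bs, Hbb-bt and Hbb-y), against 21.3%. TATAA was found in 5 of 7 (Hba-x, Hba-a1, Hba-a2, Hbb-bs and Hbb-bt), against 11.8%, and ATAAA, which can overlap it, in 4 of 7, against 20.2%. The GATA motifs AGATAA and TGATAA, found in 4.36% and 3.55% of promoters, occurred once each, in Alas2 and in Hba-x. CACCC began 111 bases before the start in Hbb-y, 95 in Hba-x, 90 in Hbb-bs and 60 in Hba-a1, and TATAA began 27 to 30 bases before it. Hba-a1 and Hba-a2 were identical at 117 of 120 bases. The RefSeq start is not the outer end of the gene in the deposited table. The 120 bases lay wholly inside the gene's deposited bounds in 3 members (Hba-x, Hba-a1 and Hbb-bs) and partly in 4, with 73 bases in Hbb-bt, 42 in Alas2, 9 in Hbb-y and 3 in Hba-a2. A match describes these letters and not a bound site.

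The other genes of the erythroid pathway were described by 6 lists of 79 genes, of which 70 were in the table and 58 were tested. None was called at the thresholds of the study, and no gene of these lists had an adjusted p under 0.05 (edgeR). The remaining genes of the globin clusters were near the limit of detection, with 8 and 1 counts of Hbq1b, a theta globin gene, in the WT libraries and 4 and 7 in the cKO libraries. Hbq1a and Hbb-bh0 had 3 counts or fewer in each library.

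Of the red cell membrane genes, 11 were tested, with a median log2 fold change of -0.09. Those with the most counts, Add2, Epb41 and Dmtn, encode parts of a membrane skeleton that neurons also use, and their log2 fold changes were -0.08, 0.03 and -0.07. Epb42, encoding a red cell membrane protein that binds band 3, had few counts, with 15 and 4 in the WT libraries and 6 and 6 in the cKO libraries. WT 1 had the most counts of Epb42, as it did of Slc4a1.

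Of 16 tested genes of heme synthesis and iron supply, with a median log2 fold change of -0.03, Tfrc, the transferrin receptor, had 1414 and 951 counts in the WT libraries and 1259 and 589 in the cKO libraries, an order of libraries that no member shared. Ppox and Alas1, enzymes of heme synthesis in all tissues, had log2 fold changes of 0.08 and -0.04. Alas1, the housekeeping counterpart of Alas2, ranged only from 805 to 954 counts.

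Of 11 tested erythroid transcription factors, with a median of -0.01, the most abundant were Ldb1, Bcl11a and Sox6, which are also expressed in the developing brain. Bcl11a, a repressor of embryonic globin genes in definitive red cells, had 5242 and 6264 counts against 6537 and 5160, and a log2 fold change of 0.01. The erythroid master regulators were scarce. Gata1 had 5 and 6 counts against 1 and 3 and was not tested. Klf1, an activator of adult beta globin, had 4 and 14 counts in the WT libraries and 12 and 14 in the cKO libraries, and a log2 fold change of 0.52 ± 0.65. Klf1 was lowest in WT 1, the library in which the globins were highest.

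Of 12 tested genes of erythropoietin signalling and red cell maturation, with a median of 0.00, Epor, the erythropoietin receptor, had 30 and 26 counts against 10 and 21, and a log2 fold change of -0.86 (unadjusted p = 0.130 in edgeR). Prdx2, an abundant red cell antioxidant that brain also expresses, had 9097 and 9594 counts against 8878 and 10828. Of 10 tested genes known to act on the choice between embryonic and adult globins, with a median of 0.03, Chd4, a chromatin remodeller, had 12129 and 13591 counts against 14301 and 14408. Lin28b, an RNA-binding protein of fetal blood progenitors that sustains fetal globin, had 222 and 209 counts in the WT libraries and 154 and 121 in the cKO libraries. Its cKO libraries both lay below the WT libraries, as in 11.2% of all genes tested. Its log2 fold change of -0.67 ± 0.25 (unadjusted p = 0.0276, adjusted p = 0.9999 in edgeR) was under the 2-fold threshold. Which cells of the tissue the Lin28b reads came from was not tested. The ratio of WT 1 to WT 2 in summed CPM was 1.10 for the heme and iron list, 0.935 for the membrane list and 0.960 for the transcription factors, against 2.74 for the yolk sac globins, so that these lists, led by genes that brain cells also express, did not share the excess of WT 1.

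Genes of other cell types differed between the libraries as well. The choroid plexus list summed to 52.0 and 10.2 CPM in the WT libraries and to 6.63 and 8.51 CPM in the cKO libraries. Of its 10 genes, 8 were measured and only 3 had enough counts to be tested. All 3 (Aqp1, Htr2c and Otx2) were called lower in cKO, with a median log2 fold change of -2.66. Htr2c had 101 and 18 counts in the WT libraries and 4 and 7 in the cKO libraries. It passed the count filter only through the WT libraries, so its call is no separate evidence about this list. Among all 16145 genes tested, 108 were called lower. The paper names Htr2c, and other genes of this list that were not tested here, among its most reduced genes in these data. The calls in this list are therefore not independent of that result. The meninges and mesenchyme list also holds a gene from among the paper's most reduced genes, which was not tested here, so the same limit applies to it. The meninges and mesenchyme list summed to 314 and 67.7 CPM against 93.8 and 49.6 CPM, and 2 of 7 tested genes, Col1a1 and Col1a2, were called lower. The endothelium list summed to 249.8 and 188 CPM against 165 and 165 CPM, with no gene called and a negative log2 fold change in 10 of 10, and the pericyte list to 128 and 89.2 CPM against 86.5 and 83.4 CPM, with 0 of 6 called. WT 1 was highest in each of these lists, as in the globins, and their part in the globin result was not tested. No call in these lists had an adjusted p under 0.05 (edgeR).

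Genes of leukocytes, microglia and platelets were present at low levels. Leukocyte and microglia genes summed to 51.3 and 35.9 CPM in the WT libraries and 35.1 and 42.2 CPM in the cKO libraries. This was the same order of libraries as in the summed yolk sac globins, and 0 of 10 tested genes were called. The gene of this list with the most counts was Csf1r, with 307 and 227 against 194 and 196. The list covers microglia as well as leukocytes, and their parts in the sum were not separated. Platelet genes summed to 18.2 and 19.9 CPM in the WT libraries and 14.7 and 20.0 CPM in the cKO libraries, with cKO 2 highest. Of 4 tested platelet genes, Pf4, a platelet chemokine, was called lower in cKO, against 108 of all 16145 genes tested. Pf4 had 36 and 15 counts against 6 and 8 and a log2 fold change of -1.87. This gene passed the count filter only through the WT libraries, in which it was higher. Gp1bb, the platelet gene with the most counts, had 179 and 266 against 191 and 262 and a log2 fold change of 0.02. It alone gave 10.4 and 14.4 CPM of the WT sums and 10.5 and 14.5 CPM of the cKO sums. The summed platelet level therefore mainly follows Gp1bb, whereas in CPM Pf4 was highest in WT 1 and Itga2b in cKO 2. Itga2b, a platelet integrin chain, had 58 and 46 counts against 45 and 65.

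**Figure D4:**
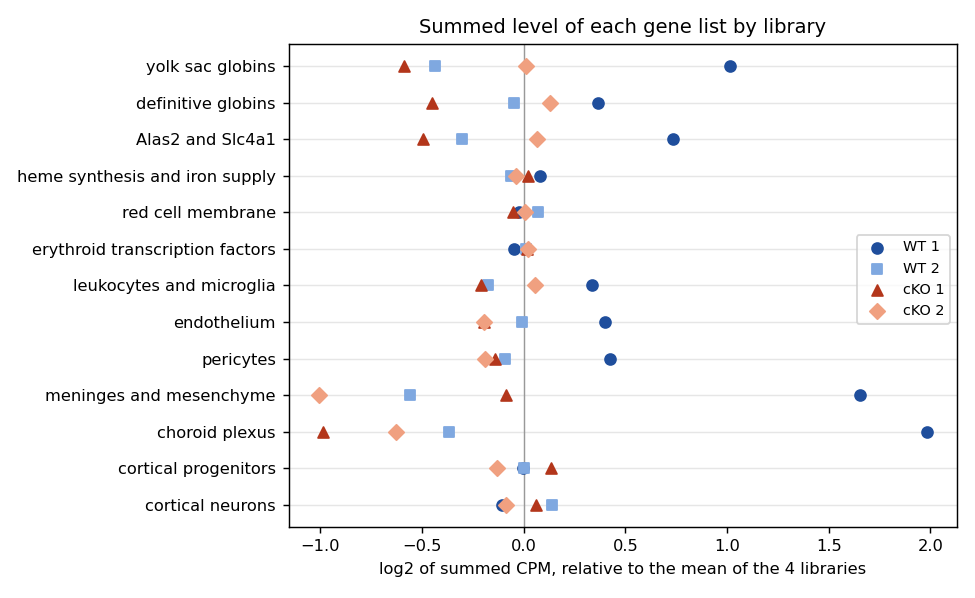
Summed CPM of each gene list in each library, as log2 relative to the mean of the 4 libraries. WT 1 is the rightmost point for the globins, Alas2 and Slc4a1, leukocytes and microglia, endothelium, pericytes, meninges and choroid plexus. The lists of heme synthesis and iron supply, red cell membrane, erythroid transcription factors, cortical progenitors and cortical neurons lie near 0 in every library.

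The median profile of the members, as centred log2(CPM + 0.5), was 0.66 and -0.38 in the WT libraries and -0.48 and 0.10 in the cKO libraries. The tested genes outside the globins whose profiles were nearest to it, by root mean square difference over the 4 libraries, were 1500015O10Rik (0.0388), Lrrc32 (0.0426), Gm5089 (0.0445), Tyrobp (0.0501) and Adamts14 (0.0557). Lrrc32 had 116 and 60 counts against 54 and 81, and Tyrobp, a signalling adaptor of myeloid cells, had 46 and 21 against 17 and 29. With 4 libraries many genes come near any profile, so this order is a description.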

How the data were processed

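RNA from E13 mouse telencephalic tissue was sequenced by the authors in 4 libraries, 2 WT and 2 cKO, and the groups were taken from the genotype labels. The deposited table gives raw counts of reads per gene in 27304 rows, of which 11 (0.0403%) name no gene and were left out. The submitters' processing notes list Bowtie2 2.2.3, TopHat2 2.0.12, HTSeq 0.6.0 and the build mm9, with no role or order, but the deposited positions are those of GRCm38, since a start or end within 1 base was found for 97.2% of the 27232 genes that GENCODE M21 also holds. How strand and reads fitting several genes were treated is not given in the sources used here. The authors' own comparison columns (mean normalized value, fold change, log2 fold change, p-value and adjusted p-value) and a second table, of cKO 1 and WT 1 only, were not used.

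The cKO libraries were compared with the WT libraries by edgeR's quasi-likelihood test (edgeR 4.0.16 in R 4.3.3), without a covariate, for the 16145 genes kept by filterByExpr and with TMM factors of 0.989 to 1.01. The thresholds for differentially expressed genes (DEGs) were those of the study, 2-fold and an unadjusted p of 0.05, and p-values were also adjusted by Benjamini-Hochberg over all genes tested. CPM were computed from the library's gene counts, which set a floor of 3 counts at 0.162 to 0.174 CPM. Exon lengths, coding sequences and 50-base windows came from GENCODE M21, and sequences before the start came from RefSeq. Shares carry exact Clopper-Pearson intervals, and sums and shares were compared by exact permutation tests over libraries (scipy 1.17.1). The scripts were tested on simulated data. Alternatives were other size factors, other filters, DESeq2 1.42.0, a stricter p, a replicate block, library sizes without globins, other length scales, and each library left out.

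The members and the gene lists were chosen with earlier results of these data known. Named in the text are the members, listed genes past the thresholds, up to 3 genes with the most counts of a list, Gata1, Klf1, Bcl11a, Epor, the STING gene and the 5 genes with the nearest profile; Hbq1b, Hbq1a, Hbb-bh0, Epb42, Lin28b and Itga2b were added after their counts were seen. Some genes of the lists are not reported here.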

Additional observations from a re-analysis of the deposited data

How the results depend on the processing

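The members had 24 to 8258 counts per library, and 2 libraries per group limit every comparison. Other size factors, other filters, DESeq2, library sizes without globins and the replicate block left the direction of the 9 member fold changes as reported, and no member was called a DEG in these fits or at the stricter p, although Hba-x had an adjusted p of 0.0160 with no filter (edgeR). The 2 sums kept their direction with TMM-normalized CPM and library sizes without globins, and the 3 shares with the other length scales and, like the definitive sum, with 1 gene of each near-identical pair. The log2 ratio of mean levels of Hbb-y over Hba-a1 was 0.88 per kilobase and -0.95 per window found in no other gene. Over the fits that leave out each library, the difference in summed yolk sac globins ran from -354 to 29.5 CPM (main value -162) and in summed definitive globins from -146 to -12.2 CPM. The difference in the yolk sac share ran from -9.46 to 2.63 points in the alpha cluster, from -16.2 to 4.86 in the beta cluster and from -13.2 to 4.39 for all globins per kilobase, and the positive values are those without WT 1. The log2 fold change ran from -1.42 to 0.20 for Hba-x, -1.21 to 0.17 for Hbb-y, -0.60 to 1.11 for Hbb-bh1, -0.97 to 0.31 for Hba-a2, -0.42 to 0.11 for Hbb-bs, -0.46 to 0.0115 for Hbb-bt, -0.68 to 0.00804 for Alas2 and -1.21 to 0.29 for Slc4a1. Among these the sign also turned without cKO 1 for Hba-a2 (0.09), Hbb-bs (0.11) and Hbb-bt (0.0115), and without cKO 2 for Hbb-bh1 (-0.45). The number of members called ran from 0 to 3, reached without WT 2.

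The number of DEGs, 131 in edgeR, was 405 with no filter, 72 when every library had to hold 10 counts, 82 with DESeq2, 14 at p of at most 0.01, and from 100 to 517 with a library left out (383 without WT 2 and 517 without cKO 1). At an adjusted p under 0.05 it was 0, but 65 with no filter and from 0 to 80 with a library left out (7 without WT 1, 80 without WT 2). Of the pathway genes 0 were called, against 1 with no filter (Ermap) and 1 to 2 with a library left out (Abcb6 and Kel without WT 1, Ermap without WT 2, Tfrc without cKO 1, Epor without cKO 2). The cause of these changes was not tested.

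Replicate numbers 1 and 2 share only a number, since no label ties them to a litter or day, and the deviations from the group means correlated across genes at 0.124 between libraries of one number. With a replicate block, 208 DEGs were called, 5 genes had an adjusted p under 0.05, 1 pathway gene (Ermap) was called and 0 members were called. The log2 fold change was -0.66 for Hba-x and -0.56 for Hbb-y. The unadjusted p in edgeR was 0.0322 for Hba-x and 0.0381 for Hbb-y, against 0.113 and 0.126 without the block. Both genes thus passed the p threshold and missed the 2-fold threshold.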
